A study of Rattus norvegicus with 12 samples.

Results

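Splicing factors and heterogeneous nuclear ribonucleoproteins (hnRNPs) were followed in fetal rat testis through every probe set whose single annotated symbol starts with Srsf, Sf3a, Sf3b, Hnrnp, Snrp, Prpf or U2af, together with those of Scaf11 and Ccar1. A probe set is the group of short array oligonucleotides that reads 1 stretch of a transcript. The symbols gave 62 genes and 108 probe sets, out of 14217 genes and 20826 probe sets that carry a single symbol. A further 8 probe sets annotated to several symbols (of Hnrnpk, Snrpn, Snrpc, Snrpg and Srsf3) and 1 of the pseudogene Srsf7-ps4 were left out. Of the 108, 105 passed the filter on mean signal and were tested. The other 3 were Ccar1 1378375_at, Scaf11 1383043_at and U2af1l4 1393323_at, which reached signals of at most 13.6, 18.4 and 19.8 on any array. All 62 genes kept at least 1 tested probe set, and 22 of them kept between 2 and 5.

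The arrays held total RNA of testes from male rat embryos at embryonic day 16, with 2 arrays in each of 6 groups. The F1, F2 and F3 vinclozolin groups descended from females injected intraperitoneally with vinclozolin at 100 mg/kg/day on days 8 to 14 of pregnancy, and the F1, F2 and F3 control groups from females given the vehicle, sesame oil with DMSO, on the same days. Vinclozolin is a crop fungicide with antiandrogenic breakdown products. Only F1 embryos were in the womb at dosing, and the later generations came from matings without further injections in the protocols. Each array read 1 pool of about 10 testes of the same treatment, and nothing in the labels ties the 2 pools of a group to different litters, so the p-values measure the spread between pools. The text on matings in the F2 and F3 vinclozolin protocols speaks of control lines, as it does for the controls, so the lineage was taken from the sample titles. The labels name no batch or scan date. All 6 vinclozolin arrays stood apart from all 6 control arrays in a beta-actin ratio of RNA integrity, whose values are given with the counts. In such bulk RNA, fewer cells of a type and less RNA per cell cannot be told apart.

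Splicing removes introns from primary transcripts. The U1 and U2 small nuclear ribonucleoproteins (snRNPs) mark the ends of an intron, with the U2AF dimer at its 3′ end and the SF3A and SF3B complexes at the branch point. The U4/U6.U5 tri-snRNP, which holds many PRPF proteins, then joins them. SR proteins, encoded by Srsf genes, mostly promote the use of nearby exons, and hnRNPs coat the transcript and often have the opposite effect. Many of these genes are themselves spliced into several forms, some of which are degraded, so that different stretches of 1 gene can be read at different levels. Where on its transcript each probe set reads is not given in the sources used here.

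A promoter window of 250 bases before to 50 after the transcription start was found for 58 of the 62 genes, as 62 windows, in RefSeq's annotation of the GRCr8 assembly. Such windows show which promoter elements the genes share, a property that the choice by symbol did not use. On either strand, the core CCGGAAG of ETS factor sites was in 19 of the 62 windows (30.6%), against 8.75% of all 33469 windows of the same length. The letters CCAAT were in 54.8% of the genes' windows, against 37.5% of all windows, and the NRF1 core GCATGCG in 8.06%, against 3.33%. TATAAA was in 11.3% of the genes' windows and in 14.2% of all windows. These matches are descriptions of the letters and show no binding. Of the 17 genes with an ETS core, 5 had a probe set that fell in F1 and 4 had one that rose. Of the 41 without it, 16 had a probe set that fell and 12 had one that rose. Windows of 4 genes with a probe set called in 1 direction in all 3 generations are shown, with capitals for the ETS core or CCAAT on either strand: Snrpd1 and U2af1 rose, and Hnrnpul1 and Sf3b1 fell. The Sf3b1 window held none of the 4 motifs.
Snrpd1 (chr18:1969424-1969723, plus strand): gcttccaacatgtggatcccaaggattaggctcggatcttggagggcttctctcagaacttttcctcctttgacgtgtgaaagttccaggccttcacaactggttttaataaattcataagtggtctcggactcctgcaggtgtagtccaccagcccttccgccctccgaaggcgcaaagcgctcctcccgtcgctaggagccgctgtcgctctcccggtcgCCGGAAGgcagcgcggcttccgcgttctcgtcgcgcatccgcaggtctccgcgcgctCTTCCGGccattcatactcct
U2af1 (chr20:9755045-9755344, minus strand): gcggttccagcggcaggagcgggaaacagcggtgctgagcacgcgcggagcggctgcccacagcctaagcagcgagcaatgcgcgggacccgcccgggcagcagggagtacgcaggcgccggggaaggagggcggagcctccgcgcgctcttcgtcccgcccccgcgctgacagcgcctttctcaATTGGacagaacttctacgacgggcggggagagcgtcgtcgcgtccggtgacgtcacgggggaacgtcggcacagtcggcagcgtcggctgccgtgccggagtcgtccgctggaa
Hnrnpul1 (chr1:90390321-90390620, minus strand): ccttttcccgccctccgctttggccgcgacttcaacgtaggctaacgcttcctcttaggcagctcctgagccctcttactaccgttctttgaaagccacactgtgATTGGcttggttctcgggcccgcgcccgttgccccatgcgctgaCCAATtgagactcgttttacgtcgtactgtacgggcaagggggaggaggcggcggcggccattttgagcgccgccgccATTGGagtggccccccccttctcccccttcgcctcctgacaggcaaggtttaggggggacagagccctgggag
Sf3b1 (chr9:64026670-64026969, minus strand): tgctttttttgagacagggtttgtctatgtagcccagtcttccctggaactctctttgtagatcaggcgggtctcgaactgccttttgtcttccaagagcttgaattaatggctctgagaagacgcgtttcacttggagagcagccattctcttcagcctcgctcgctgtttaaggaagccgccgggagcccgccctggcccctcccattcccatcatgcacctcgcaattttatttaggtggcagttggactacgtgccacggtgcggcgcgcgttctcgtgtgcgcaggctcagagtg

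Splicing genes, a list drawn up with earlier results of these data known, were called more often than the array as a whole in every generation. These shares were not matched for signal. Among probe sets with a mean signal over 1000, rises were less frequent than over all probe sets of that range, as given below. Most of the calls over all 105 probe sets were falls on the deposited scale. In F1, 51 of 105 probe sets (48.6%) were called at an adjusted p under 0.05, against 23.1% of all 21729 tested probe sets. Of these, 17 rose and 34 fell, against backgrounds of 9.41% higher and 13.7% lower. In F2, 34 (32.4%) were called, 8 higher and 26 lower, against 14.3% of all probe sets (4.7% higher and 9.65% lower). In F3, 10 (9.52%) were called, 3 higher and 7 lower, against 3.11% (1.05% higher and 2.06% lower). For the mean of the 3 differences, 59 (56.2%) were called, 24 higher and 35 lower, against 33.3%. Without Scaf11, Ccar1 and Sf3b1, 46 of 95 were called in F1 (17 higher and 29 lower) and 26 in F2 (7 and 19). In F3 it was then 6 (6.32%), 3 higher and 3 lower. The median log2 difference, vinclozolin minus control, of the 105 was −0.12 in F1, −0.10 in F2 and 0.01 in F3, against −0.01 in each generation over all probe sets. After quantile normalization the F1 medians were −0.18 for the 105 and 0.04 over all probe sets. With arrays centred on their medians the F1 calls split into 23 higher and 25 lower, the F2 calls into 20 and 19, and the F3 calls into 6 and 4. After quantile normalization the F1 calls split into 10 higher and 42 lower. With 1 probe set per gene, that with the highest mean signal, 27 of 62 were called in F1 (11 higher and 16 lower), 16 in F2 (4 and 12) and 4 in F3 (2 and 2), against 20.2%, 11.1% and 2.72% of 11287 genes.

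**Figure D1:**
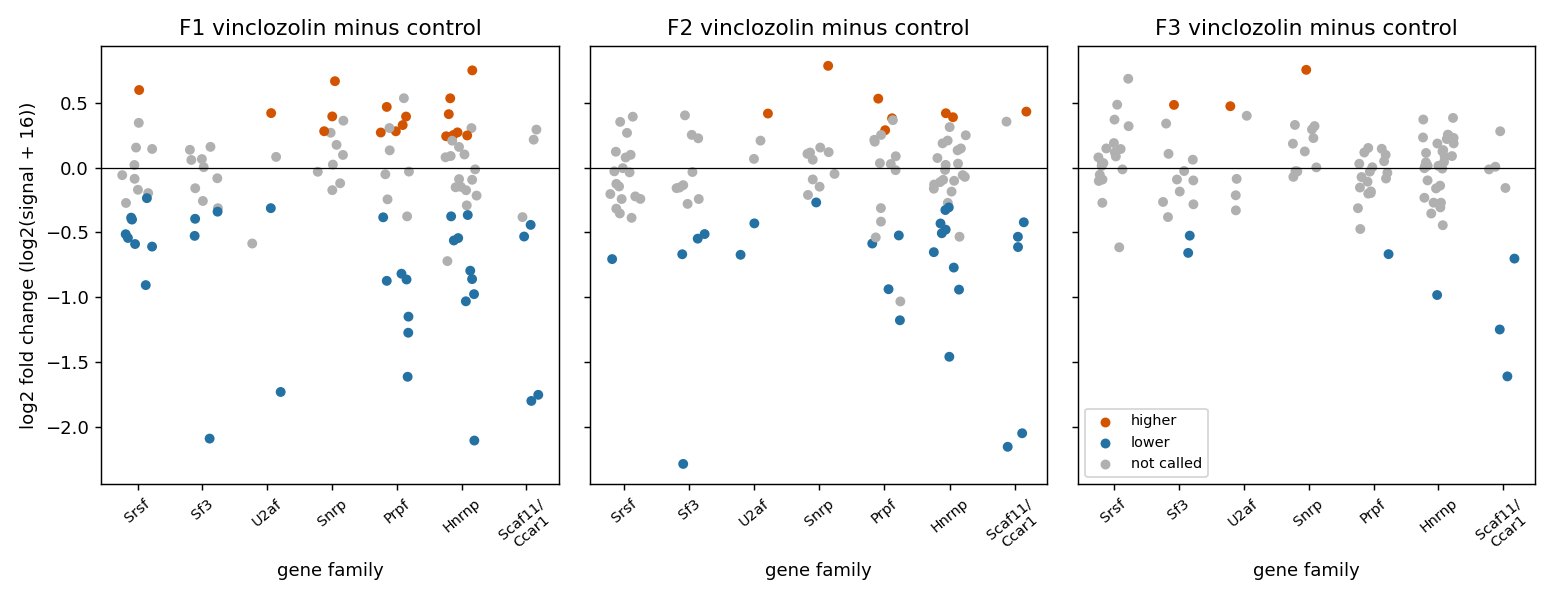
Log2 difference, vinclozolin minus control, of the 105 tested probe sets by gene family (x axis) in F1, F2 and F3 (panels). Orange points were called higher, blue points lower and grey points neither; the lowest points of F1 and F2 lie near −2 and belong to Hnrnpa2b1, Sf3b1, Scaf11 and Ccar1, while F3 has 10 coloured points.

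Measures of RNA integrity differed between the arrays. The ratio of the 5′ to the 3′ signal of the beta-actin transcript was 0.192 and 0.149 on the F1 vinclozolin arrays, 0.246 and 0.219 on the F2 vinclozolin arrays and 0.395 and 0.360 on the F3 vinclozolin arrays, against 0.423 to 0.471 on the 6 control arrays. The same ratio of the Gapdh transcript was 0.718 and 0.651 on the F1 vinclozolin arrays, 0.8 and 0.721 on the F2 vinclozolin arrays and 1.02 and 0.97 on the F3 vinclozolin arrays, against 0.959 to 1.02 on control arrays, so in F3 only the beta-actin ratio was apart. When the beta-actin ratio of each array was a covariate in the limma fit, 0 of the 105 probe sets were called in F1 and 0 in F2 (13 and 18 at an unadjusted p under 0.05), and 0 of all 21729 in either. The share of all probe sets under that unadjusted p was not counted, so the 13 and 18 cannot be set against the array. The fitted differences did not all shrink. In F1 and F2 Sf3b1 1382691_at had −1.96 and −2.20 with the covariate (−2.09 and −2.28 without it), Scaf11 1373303_at −2.51 and −2.65 (−1.75 and −2.15) and Ccar1 1380549_at −2.02 and −2.19 (−1.80 and −2.05), whereas Hnrnpa2b1 1395561_at had −0.45 and −0.38 (−2.10 and −1.46). In F3, 8 of the 105 (7.62%) were called with the covariate, 2 higher and 6 lower, against 247 of all 21729 (1.14%). Of the 8, 7 were also called without it, and the other was Srsf11 1382056_at (−1.12, adjusted p = 0.00446). The beta-actin ratio was lower on every vinclozolin array than on every control array, so the parts of the ratio and the lineage cannot be told apart. The F3 calls lost with the covariate were Sf3b1 1382691_at, Prpf38b 1379691_at and Sf3b6 1371396_at. In the plots of signal against this ratio, Hnrnpa2b1 1395561_at falls with the ratio over the vinclozolin arrays, while Scaf11 1373303_at and Hnrnpul1 1399099_at were as low in F3 as in F1.

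**Figure D2:**
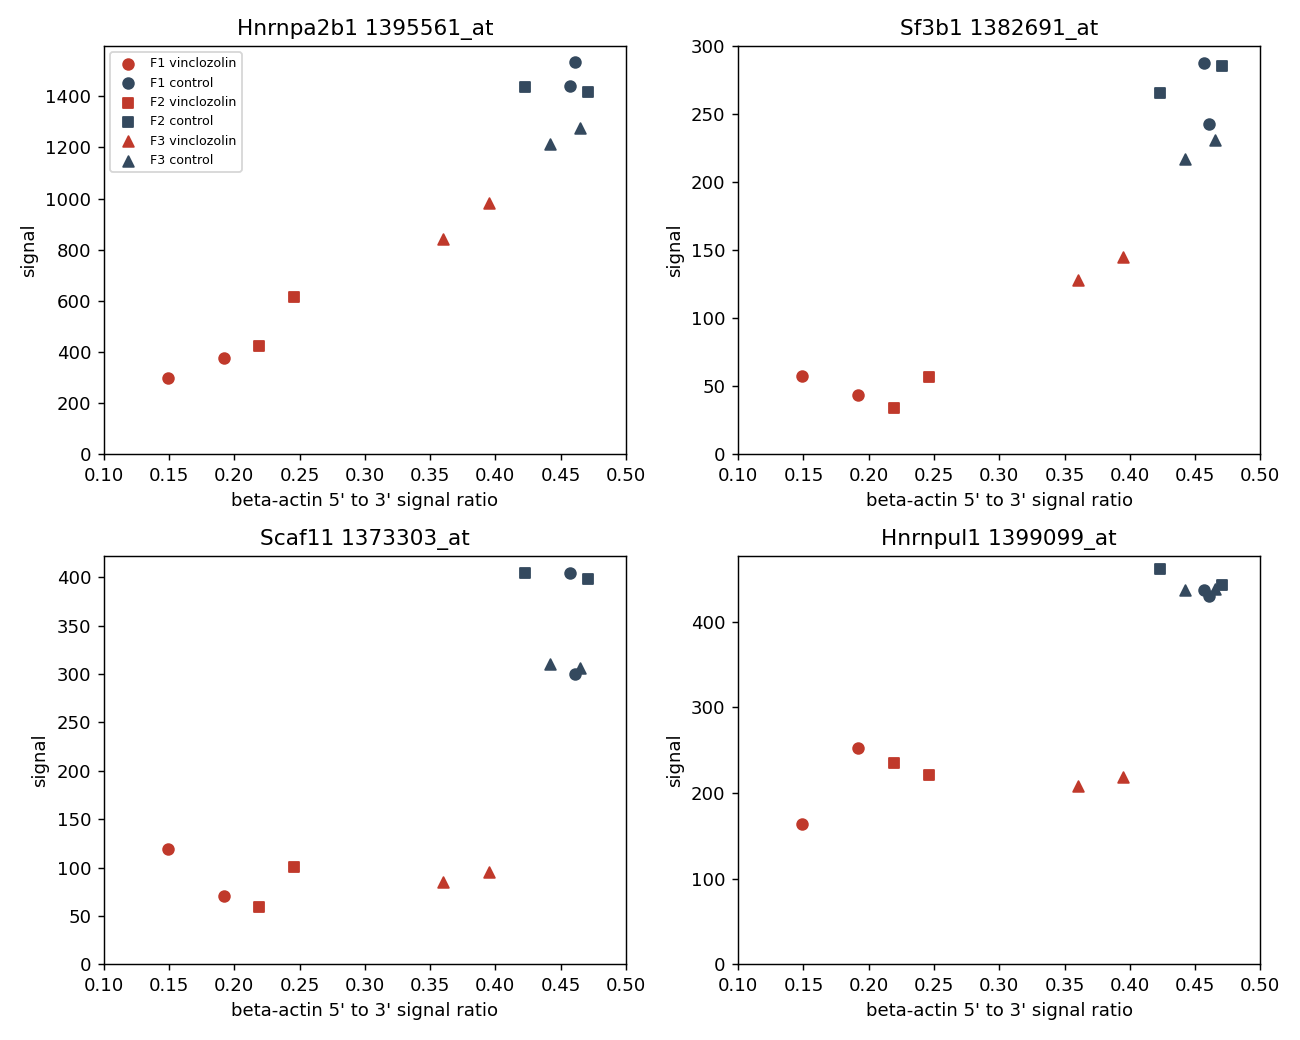
Signal (y axis) against the beta-actin 5′ to 3′ ratio (x axis) on the 12 arrays for 4 probe sets; red marks are vinclozolin and dark marks control arrays, and the shape gives the generation. Hnrnpa2b1 1395561_at had 983.2 and 842.1 on the F3 vinclozolin arrays and 374 and 298.2 on the F1 vinclozolin arrays, whereas Hnrnpul1 1399099_at had 218.9 and 208.4 in F3 and 253 and 164.2 in F1.

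Other signs of makeup and quality also differed. Array medians were 40.6 to 42.85 on vinclozolin arrays and 44.5 to 47.1 on control arrays. Leydig cell markers (6 of 6 genes on the array) summed to 12540 to 14880 on vinclozolin arrays and 11790 to 12460 on control arrays, a sum carried by Cyp17a1, Hsd3b1 and Cyp11a1. Of their 8 probe sets 1 rose and 3 fell in F1, among them 1 of Lhcgr with 12.8 and 11 in F1 vinclozolin testes against 52.4 and 65.8 in F1 controls. Sertoli markers (4 of 7 genes, Amh among them) summed to 3540 to 4584 on vinclozolin and 4024 to 4361 on control arrays. Germ cell markers were represented by Kit and Nanos3 alone (2 of 7 genes) and summed to 45.4 to 59.7 in F1 vinclozolin, 70.9 to 81.6 in F2 vinclozolin and 89.7 to 104.7 in F3 vinclozolin testes, against 93.6 to 119.8 in controls. That difference lay in Kit, with 20.2 and 2.5 in F1 vinclozolin testes against 76.3 and 80 in F1 controls, while Nanos3 had 39.5 and 42.9 against 35.2 and 36.5. Erythroid markers (8 of 10) summed to 13220 to 17010 on vinclozolin and 10900 to 12530 on control arrays, a sum carried by Hbb and Hbe1. Of their 9 probe sets 6 rose and 1 fell in F1, 1 rose and 1 fell in F2, and 6 rose in F3. The fall in F1 and F2 was at 1 probe set of Slc4a1 (−0.80 and −1.03). Striated muscle markers (8 of 9) summed to 92.2 to 164.1 on vinclozolin and 152.4 to 222.1 on control arrays, with no muscle probe set above 62.9. Prostate secretory genes (4 of 7) summed to 32.6 to 60.9 on F1 and F2 vinclozolin arrays and to 472.4 and 552.8 on F3 vinclozolin arrays, against 12.4 to 22 on controls, where Scgb1d4 and Scgb1d2 lay near 0. The part of these in the splicing gene differences was not tested.

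Within single genes, different probe sets gave different answers. The 22 genes with several tested probe sets held 73 pairs, and the difference between the members of a pair was tested directly on each array. In F1, 43 of 73 pairs (58.9%), in 18 of the 22 genes, responded unequally, against 39.3% of 6158 such pairs of 3267 genes on the array. In F2 it was 38 pairs (52.1%), again in 18 genes, against 32.2%, and in F3 7 pairs (9.59%), in 4 genes, against 4.21%. The median size of the difference between a pair was 0.60 in F1, 0.53 in F2 and 0.21 in F3, on the log2 scale, against 0.42, 0.37 and 0.22 over all pairs. With the beta-actin covariate 3 pairs were called in F1, 7 in F2 and 9 in F3, and the share over all pairs was not counted for that fit.

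Prpf38b alone fell at all its probe sets in F1. A further 10 genes fell at some and rose at none, 5 rose at some and fell at none, 4 (Hnrnpa3, Hnrnpu, Prpf3 and Prpf4b) did both, and Prpf18 and Srsf1 had no call. In F2, 11 of the 22 fell at some and rose at none, 2 rose at some and fell at none, Ccar1 and Hnrnpu did both, and 7 had no call. In F3, 5 fell at some probe set, Snrpd1 rose at 1 of 2, and 16 had no call.

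**Figure D3:**
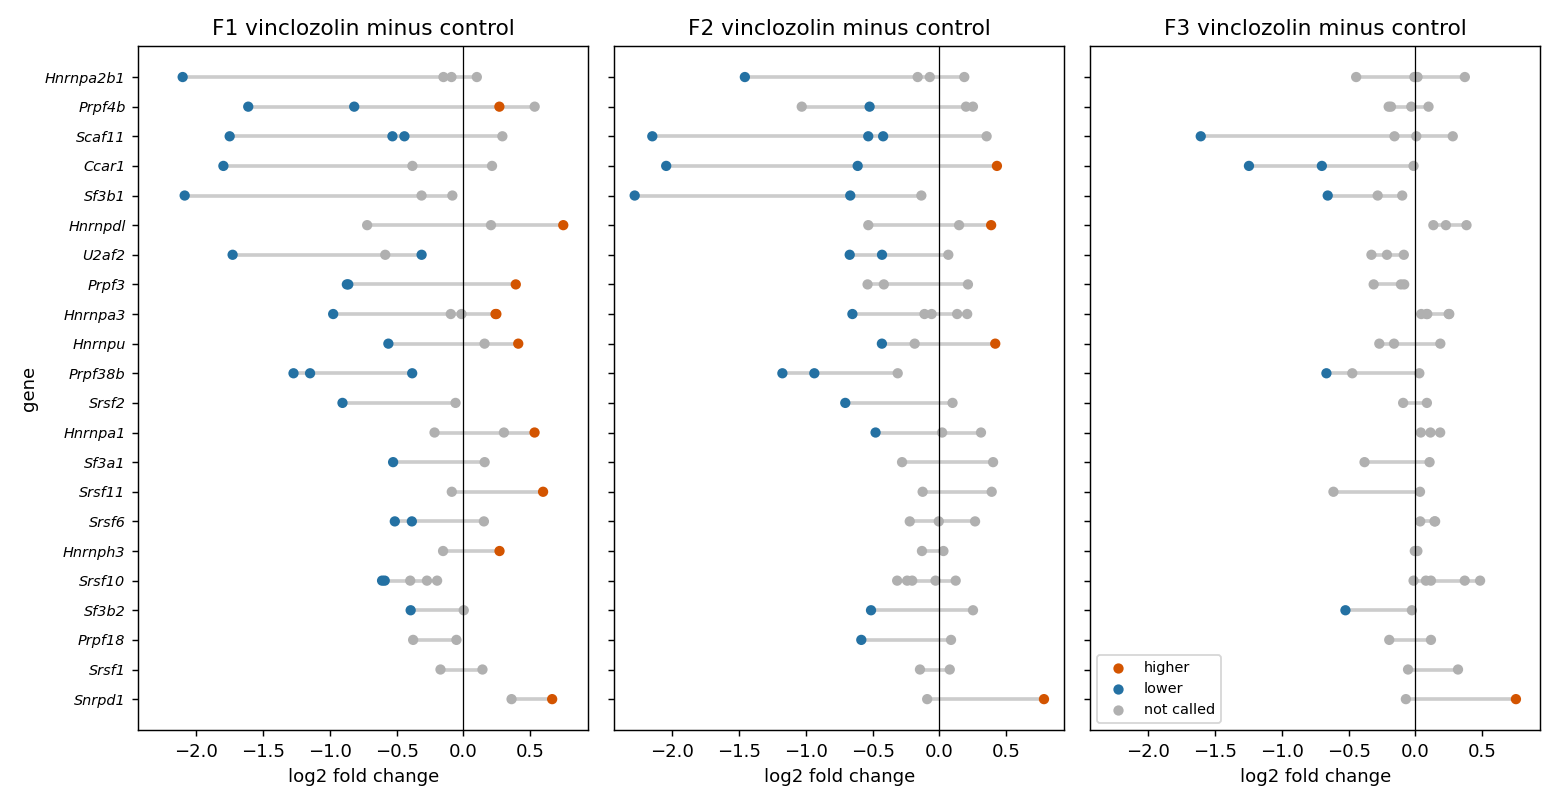
Log2 difference, vinclozolin minus control (x axis), of each probe set of the 22 genes with several tested probe sets (y axis, ordered by their range in F1), in F1, F2 and F3. Bars join the lowest and highest probe set of a gene; the median bar length was 0.87 in F1, 0.80 in F2 and 0.42 in F3, on the log2 scale.

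The widest split in F1 was in Hnrnpa2b1, whose product is an abundant nuclear RNA-binding protein of the hnRNP A/B group. Its probe set 1395561_at had signals of 374 and 298.2 in F1 vinclozolin testes, against 1535.4 and 1440 in F1 controls, and 614.7 and 421.9 in F2 vinclozolin testes, against 1435.3 and 1418.3 in F2 controls. In F3 it had 983.2 and 842.1, against 1275.8 and 1212.8. Both vinclozolin arrays lay below both control arrays in every generation, and the gap narrowed from F1 to F3. Log2 differences were −2.10 ± 0.14 (SE, with 2 arrays on each side, as below; adjusted p = 6.59e-07 in limma's moderated test) in F1 and −1.46 ± 0.14 (adjusted p = 2.65e-05) in F2, and the F3 value of −0.44 ± 0.14 was not called (adjusted p = 0.103). The other 3 probe sets, 1398883_at, 1373540_at and 1378543_at, lay between −0.16 and 0.37 in all generations, with no call in any. The difference between 1395561_at and 1373540_at was −2.01 ± 0.13 in F1 (adjusted p = 1.23e-08) and −1.39 ± 0.13 in F2 (adjusted p = 1.59e-06). In F3 1395561_at still differed from 1378543_at, by −0.81 ± 0.17 (adjusted p = 0.00991).

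Sf3b1 encodes the largest SF3B subunit, which clamps the branch point. Its probe set 1382691_at had signals of 43.1 and 57.7 in F1 vinclozolin testes, against 242.9 and 287.6 in F1 controls, 56.3 and 33.6 in F2 vinclozolin testes, against 265.7 and 285.2 in F2 controls, and 145 and 127.9 in F3 vinclozolin testes, against 230.9 and 217.4 in F3 controls. The groups did not overlap in any generation. A second probe set, 1390234_at, had 1349.3 and 1343 in F1 vinclozolin testes against 1429 and 1423.9 in controls, and was not called in any generation (−0.08, −0.14 and −0.10). The third, 1389840_at, fell in F2 (−0.67 ± 0.13) and not by the test in F1 (−0.31) or F3 (−0.28). The difference between 1390234_at and 1382691_at was 2.00 ± 0.16 in F1 (adjusted p = 1.02e-07) and 2.15 ± 0.16 in F2 (adjusted p = 1.55e-07), so the fall was read at 1 stretch of this gene far more than at another.

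**Figure D4:**
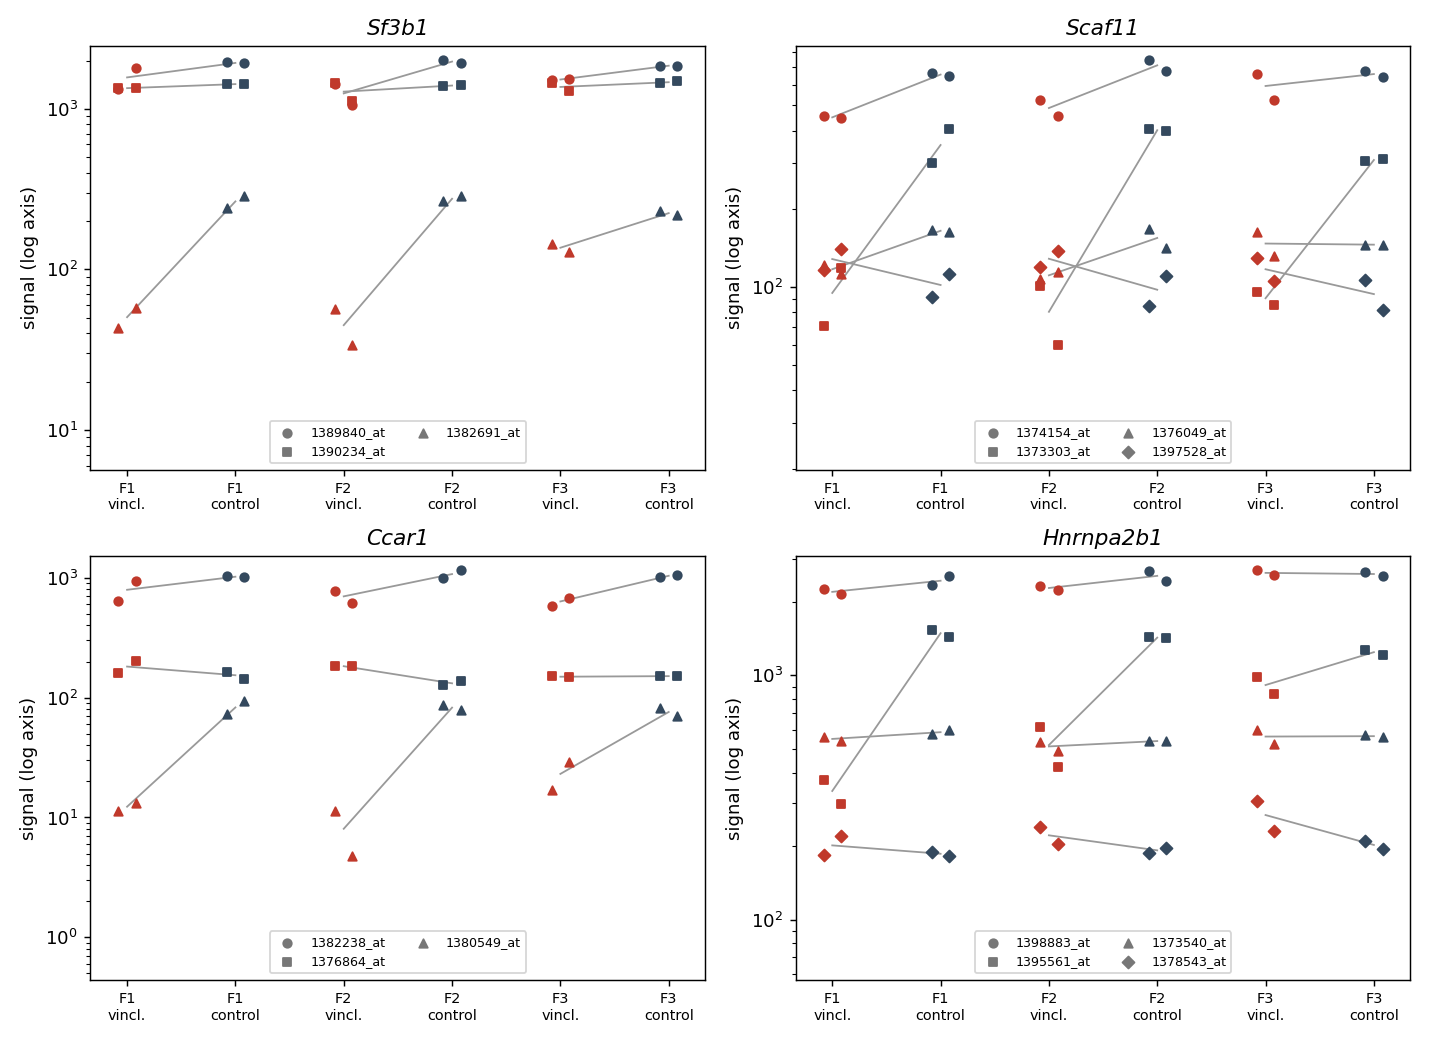
Signal on a log axis (y) of every tested probe set of Sf3b1, Scaf11, Ccar1 and Hnrnpa2b1 on each of the 12 arrays (x, red for vinclozolin and dark for control), with lines joining group means within a generation. In each gene 1 probe set falls steeply, such as Ccar1 1380549_at with 11.4 and 13.2 in F1 vinclozolin against 72.8 and 92.8 in F1 control, while at least 1 other was not called lower in any generation.

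Scaf11, whose product binds SR proteins, and Ccar1, a coactivator also found in spliceosomes, showed the same kind of split and kept it in F3. Scaf11 1373303_at had 95.8 and 85.3 in F3 vinclozolin testes, against 306.5 and 310.1 in F3 controls, and 71 and 118.8 in F1 vinclozolin testes, against 299.6 and 404.6 in F1 controls. Its fall in F1 was 1.75 on the log2 scale (adjusted p = 4.27e-05). Scaf11 1374154_at and 1376049_at fell in F1 (−0.53 and −0.44) and F2 but gave −0.16 and 0.01 in F3, and 1397528_at gave 0.29, 0.35 and 0.28, with no call. In F3 1373303_at differed from 1397528_at by −1.89 ± 0.23 (adjusted p = 0.000191) and from 1376049_at by −1.61 ± 0.24 (adjusted p = 0.000876). Ccar1 1380549_at had 17.1 and 29.1 in F3 vinclozolin testes, against 82.2 and 69.6 in F3 controls, and was called lower in F1 (adjusted p = 2.30e-05). Its signals of 11.4 and 13.2 in F1 vinclozolin and 11.3 and 4.8 in F2 vinclozolin testes lay under 14.8, the mean signal below which probe sets were left out, so it was tested because of its other arrays and the sizes of its falls and pair differences there depend on the value of 16 added before the log. With 1 added in place of 16 the F1 difference was −2.65, and with 64 it was −0.94, both called. Ccar1 1376864_at had 161.2 and 201.9 in F1 vinclozolin testes against 164.4 and 143 in F1 controls, overlapping groups (0.21 ± 0.12; adjusted p = 0.227), and it was the only Ccar1 probe set to rise in F2. The pair differed by 2.48 ± 0.24 in F2 (adjusted p = 1.80e-06) and 1.23 ± 0.24 in F3 (adjusted p = 0.00701). With the beta-actin covariate, Scaf11 1373303_at stayed called in F3 (−1.75; adjusted p = 0.00657), as did Ccar1 1380549_at (−1.29; adjusted p = 0.0263) and 1382238_at (−0.88; adjusted p = 0.028).

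Of the 3 U2af genes, whose products define the 3′ splice site, U2af1 rose and U2af2 fell. U2af1, the small subunit that reads the terminal AG of the intron, had signals of 1386.8 and 1365.4 in F1 vinclozolin testes, against 1019.6 and 1030.8 in F1 controls, 1315.5 and 1294 in F2 vinclozolin testes, against 1008.5 and 940.9 in F2 controls, and 1279.1 and 1426.7 in F3 vinclozolin testes, against 949.6 and 990 in F3 controls. Every vinclozolin array lay above every control array. The log2 differences were 0.42 ± 0.08 (adjusted p = 0.0018), 0.42 ± 0.08 (adjusted p = 0.00343) and 0.47 ± 0.08 (adjusted p = 0.00649). U2af2, the large subunit that binds the polypyrimidine tract, fell at 1388797_at, with 993.5 and 837.5 in F1 vinclozolin testes against 1110 and 1164.7 in controls (−0.31 ± 0.09; adjusted p = 0.0183), and in F2 by 0.43. Its probe set 1395614_at had 19.6 and 12.5 in F1 vinclozolin testes, against 91.6 and 87.5 in F1 controls (−1.73 ± 0.18; adjusted p = 1.44e-05), and in F2 49 and 48.9, against 89.7 and 85.3 (−0.67 ± 0.18; adjusted p = 0.0205). In F3 its value was −0.33. U2af2 1395282_at (25.7 to 75.5 on all arrays) and U2af1l4 1373205_at, a paralogue of the small subunit (137.2 to 227), were not called in any generation.

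The SF3A and SF3B genes (9 genes, 13 probe sets) fell at 4 probe sets in F1 and 4 in F2 and rose at none, and in F3 2 fell and 1 rose. The shares called were 30.8%, 30.8% and 23.1%, against 23.1%, 14.3% and 3.11% of all probe sets. Besides Sf3b1, Sf3b2 1377070_at, which reads a partner of the branch-point subunit, fell in all 3 generations (−0.39, −0.51 and −0.52), with 191.2 and 189.8 in F3 vinclozolin testes against 271.2 and 291.2 in F3 controls. Its other probe set, 1388614_at, gave 0.00, 0.25 and −0.03, and the pair differed by the test in F2 alone (0.76 ± 0.18; adjusted p = 0.0036). Sf3b6, whose product lies at the branch-point adenosine, rose in F3 (0.48 ± 0.12; adjusted p = 0.0395), with 1523.6 and 1540.3 in vinclozolin testes against 1091.4 and 1093 in controls. The small subunit gene Sf3b5 had 378.6 and 351.3 in F2 vinclozolin testes, against 514.1 and 568.2 in F2 controls, and 632.7 and 622.3 in F3 vinclozolin testes, against 482.3 and 503.9 in F3 controls. The F2 fall was called (−0.55 ± 0.10; adjusted p = 0.00295) and the F3 value of 0.34 was not (adjusted p = 0.0915).

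SR protein genes (10 genes, 19 probe sets) fell at 8 probe sets and rose at 1 in F1. They fell at 1 in F2 and had no call in F3. The shares called were 47.4%, 5.26% and 0%, against 23.1%, 14.3% and 3.11% of all probe sets, so those of F2 and F3 were lower. In F3, 5 of 19 had an unadjusted p under 0.05 in the limma fit. The share of all probe sets under that p is not given. Srsf2, which binds exonic enhancers and is a marker of nuclear speckles, carried the fall of F2. Its probe set 1371839_at had 358.3 and 295.7 in F1 vinclozolin testes, against 594.5 and 654.4 in F1 controls, 403.9 and 375.8 in F2 vinclozolin testes, against 631.1 and 659.6 in F2 controls, and 638 and 544 in F3 vinclozolin testes, against 638.5 and 620.1 in F3 controls. The groups were apart in F1 and F2 (−0.91 and −0.70) and overlapped in F3 (−0.09; adjusted p = 0.713). Srsf2 1371838_at had 2257.6 and 2525.8 in F1 vinclozolin testes against 2428.4 and 2548.9 in controls, and no call in any generation. The pair differed by 0.85 ± 0.14 in F1 and by 0.80 ± 0.14 in F2 (adjusted p = 0.000141 and 0.000404).

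The other falls among SR genes in F1 were at Srsf4 (−0.40), Srsf5 (−0.24), Srsf9 (−0.54), 2 of 3 probe sets of Srsf6 (−0.39 and −0.51) and 2 of 5 of Srsf10 (−0.61 and −0.59), a splicing repressor regulated by its phosphorylation. Srsf11 1382056_at rose in F1, with 518.2 and 916.5 in vinclozolin testes against 443.9 and 457.6 in controls (0.60 ± 0.20; adjusted p = 0.0422), a call resting on a wide pair of arrays. In F3 the same probe set had 266.1 and 284.7, against 375.6 and 491.7 (−0.61; adjusted p = 0.108). Srsf3 1379010_at (42.4 and 56.8 in F1 vinclozolin, 31.3 and 39.8 in F1 control) rose only in the mean of the 3 differences (0.46 ± 0.11; adjusted p = 0.00511). Srsf1, Srsf7 and the other Srsf11 probe set had no call in any generation.

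Genes of the snRNP proteins (10 genes, 11 probe sets) had few calls: 3 rose and none fell in F1 (27.3% called, against 23.1% of all probe sets), 1 rose and 1 fell in F2 (18.2%, against 14.3%), and 1 rose in F3 (9.09%, against 3.11%). Snrpd1 encodes SmD1, a subunit of the Sm ring around the spliceosomal RNAs. Its probe set 1379320_at had 290.9 and 355.7 in F1 vinclozolin testes, against 185.3 and 209.5 in F1 controls, 304 and 288.5 in F2 vinclozolin testes, against 173.3 and 157.9 in F2 controls, and 338.6 and 338.7 in F3 vinclozolin testes, against 182.2 and 207.7 in F3 controls. The differences were 0.66, 0.78 and 0.75, each ± 0.12 (adjusted p = 0.000939, 0.000569 and 0.0035), and no array of either lineage overlapped the other. Snrpd1 1383107_at was not called, at 0.36, −0.09 and −0.07, and differed from 1379320_at by −0.87 ± 0.14 in F2 (adjusted p = 0.000252) and −0.82 ± 0.14 in F3 (adjusted p = 0.00348). The Sm genes Snrpe (0.39 ± 0.09) and Snrpd2 (0.28 ± 0.08) rose in F1, and Snrpf fell in F2 (−0.27 ± 0.07). RefSeq lists 26 of the 62 genes with named pseudogene copies, among them Snrpd1 with 1, Snrpe with 3 and Hnrnpa1 with 51, so a part of such signals could come from copies.

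**Figure D5:**
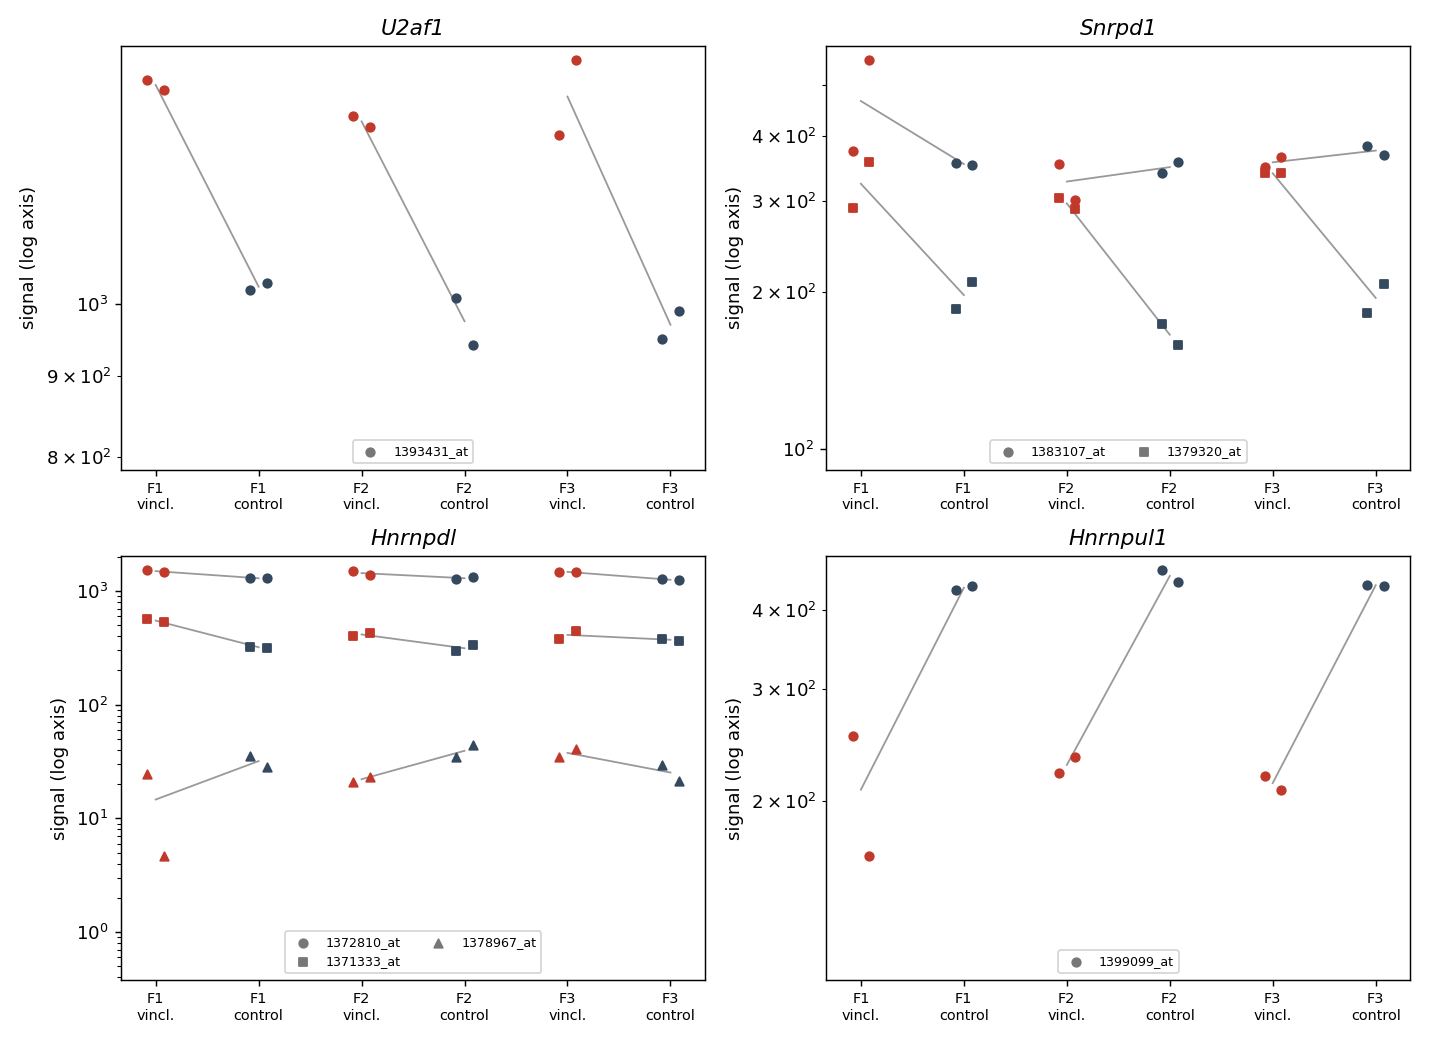
Signal on a log axis (y) of every tested probe set of U2af1, Snrpd1, Hnrnpdl and Hnrnpul1 on the 12 arrays (x, red for vinclozolin and dark for control), with lines joining group means within a generation. U2af1 had 1279.1 to 1426.7 on vinclozolin arrays and 940.9 to 1030.8 on control arrays, Hnrnpul1 had 164.2 to 253 on vinclozolin arrays and 430.2 to 461.5 on control arrays, and the rise of Hnrnpdl 1371333_at shrank from F1 to F3.

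Among the Prpf genes (11 genes, 19 probe sets), which act in or around the tri-snRNP, 5 probe sets rose and 7 fell in F1, 3 rose and 4 fell in F2, and 1 fell in F3. The shares called were 63.2%, 36.8% and 5.26%, against 23.1%, 14.3% and 3.11% of all probe sets. Prpf38b, a homologue of yeast Prp38, fell at 1379691_at in all 3 generations, with 16.2 and 21.3 in F1 vinclozolin testes against 64.5 and 57.3 in F1 controls, and 44.9 and 30.3 in F3 vinclozolin testes against 65.6 and 71.1 in F3 controls (−1.15, −0.94 and −0.67; adjusted p = 0.000287, 0.00243 and 0.0498). Its probe set 1385455_at fell in F1 and F2 (−1.27 and −1.18), and 1374500_at in F1 (−0.38). The F1 vinclozolin signals of 1385455_at were 16.8 and 13.3. The latter lay under 14.8, so the size of that F1 fall depends on the 16 added before the log. The paralogue Prpf38a rose in F1 (0.47 ± 0.14; adjusted p = 0.0264), with 385.5 and 549.8 in vinclozolin testes against 342.4 and 316 in controls. Prpf4b, a splicing kinase, had the widest range of F1 differences among the Prpf genes. Its highest, 1385533_at at 0.53, was not called. Its lowest, 1397203_at, had 9.8 and 75.8 in F1 vinclozolin testes against 121.6 and 144.7 in controls (−1.61 ± 0.37; adjusted p = 0.00551), 1382646_at fell by 0.82, and 1376010_at rose by 0.27. The 1397203_at value rests on vinclozolin arrays far apart. Its signal of 9.8 also lay under 14.8, so the size of this fall depends on the 16 added as well. Prpf19, a ubiquitin ligase of the spliceosome, rose in F1 and F2 (0.33 and 0.38), as did Prpf4 of the tri-snRNP (0.28 and 0.29), and Prpf40b rose in F2 (0.53 ± 0.11; adjusted p = 0.00626). Prpf8 and Prpf6, the large scaffold proteins of the tri-snRNP, had no call.

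The hnRNP genes (17 genes, 31 probe sets) rose at 7 probe sets and fell at 9 in F1, rose at 2 and fell at 9 in F2, and fell at 1 in F3. The shares called were 51.6%, 35.5% and 3.23%, against 23.1%, 14.3% and 3.11% of all probe sets, so the F3 share was near that of the array. The F3 call was Hnrnpul1, an hnRNP U-like protein, whose signals were 253 and 164.2 in F1 vinclozolin testes, against 430.2 and 436.7 in F1 controls, 221.4 and 234.9 in F2 vinclozolin testes, against 461.5 and 443.2 in F2 controls, and 218.9 and 208.4 in F3 vinclozolin testes, against 438.2 and 436.5 in F3 controls. Its differences were −1.03, −0.94 and −0.98, each ± 0.14 (adjusted p = 0.000125, 0.000538 and 0.00186), nearly equal in the 3 generations. With the beta-actin covariate the F3 value was −0.73 (adjusted p = 0.0268) and the F1 value was 0.33 (adjusted p = 0.872). Hnrnpf, which binds G-rich stretches, fell in F1 and F2, with 626 and 596.7 in F1 vinclozolin testes against 1104.3 and 1139 in F1 controls (−0.86 and −0.77, each ± 0.09; adjusted p = 2.36e-05 and 0.000158). Hnrnpd, known for binding AU-rich elements, fell in F1 and F2 (−0.79 and −0.51), as did Hnrnpm (−0.54 and −0.31) and Hnrnpll (−0.38 and −0.33).

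Hnrnpdl 1371333_at, of a gene related to Hnrnpd, had 561.1 and 534.6 in F1 vinclozolin testes, against 324 and 315.4 in F1 controls, 398.4 and 429.5 in F2 vinclozolin testes, against 294.5 and 331.6 in F2 controls, and 377.1 and 443.7 in F3 vinclozolin testes, against 381 and 362.1 in F3 controls. It rose in F1 (0.75 ± 0.10; adjusted p = 0.000135) and F2 (0.39 ± 0.10; adjusted p = 0.0203), and in F3 the arrays overlapped (0.13; adjusted p = 0.534). Hnrnpdl 1372810_at and 1378967_at were not called, and 1378967_at differed from 1371333_at in F1 (1.47 ± 0.26, 1371333_at minus 1378967_at; adjusted p = 0.000262). Signals of 1378967_at were 24.6 and 4.7 in F1 vinclozolin testes, far apart, against 35.4 and 28.4 in F1 controls. The signal of 4.7 lay under 14.8, so the size of this pair difference depends on the value added before the log. Hnrnpu, which also binds chromatin, fell at 1370170_at (−0.56 and −0.43 in F1 and F2) and rose at 1372823_at (0.41 and 0.42), and these differed by −0.97 ± 0.17 and −0.85 ± 0.17 (adjusted p = 0.000188 and 0.000992). Hnrnpa1 rose at 1372693_at in F1 (0.53) and fell at 1387872_at in F2 (−0.48). Hnrnpa3 fell at 1394741_at, with 98.2 and 78.8 in F1 vinclozolin testes against 199.5 and 178.1 in F1 controls (−0.97 ± 0.16; adjusted p = 0.000467), while 1370871_at and 1388119_at rose in F1 by 0.24 and 0.25.

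Across generations, 8 of the 105 probe sets (7.62%) were called in 1 direction in F1, F2 and F3, against 1.22% of all probe sets. The lower were Hnrnpul1, Prpf38b 1379691_at, Ccar1 1380549_at, Scaf11 1373303_at, Sf3b1 1382691_at and Sf3b2 1377070_at, and the higher were Snrpd1 1379320_at and U2af1. The genes were chosen with earlier results of these data known, so the share of 7.62% is given as a description. Of the 34 probe sets that fell in F1, 20 (58.8%) also fell in F2, against 50.4% over all probe sets that fell in F1. These 20 were 76.9% of the 26 that fell in F2, against 71.7% over all. Of the 7 that fell in F3, 6 (85.7%) had fallen in F1, against 53.3% over all. None of the 105 was called in opposite directions in 2 generations, against 30 of all 21729. Each generation had its own control arrays. The correlation of the differences over the 105 probe sets, given as a description, was 0.90 between F1 and F2, 0.63 between F1 and F3 and 0.73 between F2 and F3, against 0.71, 0.40 and 0.47 over all 21729; the points share arrays, and probe sets of 1 gene share their source. The difference depended on generation in 8 probe sets (7.62%), against 2.6% of all, led by Hnrnpa2b1 1395561_at (F test, adjusted p = 0.00226) and Sf3b1 1382691_at (adjusted p = 0.00397).

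The 3 control groups gave a test of the same probe sets without vinclozolin. In limma's F test 0 of 105 differed among F1, F2 and F3 controls at an adjusted p under 0.05, as did 0 of all 21729, and 1 of 105 had an unadjusted p under 0.05 (517 of 21729). Sf3b1 1382691_at, for example, stayed between 217.4 and 287.6 on the 6 control arrays, and Hnrnpul1 between 430.2 and 461.5. Replicate pools of the splicing probe sets differed more in vinclozolin groups, by a pooled SD of 0.27 in F1, 0.16 in F2 and 0.15 in F3, than in the control groups, with 0.09, 0.10 and 0.09 (log2 scale). The F test among controls used the spread shared by all 6 groups, which the vinclozolin pools widened. Its 0 calls therefore do not show that the controls were equal. The 2 F1 vinclozolin arrays weigh on the shared spread: without either of them, 31 of the 105 probe sets were called in F3 in place of 10, and 40 (without replicate 1) or 17 (without replicate 2) depended on generation in place of 8. Without F3 control replicate 1 or 2, 2 or 4 were called in F3, without F3 vinclozolin replicate 1 or 2, 5 or 4, and without any 1 of the 4 F1 and F2 control arrays, 6. Without F1 control replicate 1 or 2, 26 or 23 were called in F1, and without F2 control replicate 1 or 2 or F2 vinclozolin replicate 2, 17, 15 or 15 in F2.

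The calls were also counted by signal strength. The splicing probe sets had a median mean signal of 505, against 96 over all tested probe sets. Of the 18 with a mean signal under 100, 9 fell in F1 (50%) and none rose, against 12.2% lower and 3.63% higher among all 11107 probe sets of that range. From 100 to 400, 37.9% fell and 13.8% rose in F1, against 16.2% and 11.6%, and from 400 to 1000, 32% and 28%, against 13.6% and 21.2%. Of the 33 over 1000, 6 fell (18.2%) and 6 rose (18.2%), against 11.4% and 35.1% of 830. In F2, 18.2% of these 33 fell and 3.03% rose, against 7.59% and 12.9%. In F3 none fell and 6.06% rose, against 1.57% and 8.31%. These shares are counts and were not tested against each other. Genes with 1 probe set (40) had 7 higher and 10 lower in F1, and the 65 probe sets of genes with several had 10 and 24.

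Other genes of the splicing machinery, from a list of 141 that excluded those above, were on the array in 129 cases with 212 tested probe sets. In F1, 28 rose and 50 fell (36.8% called, against 23.1% of all probe sets), in F2 15 rose and 37 fell (24.5%, against 14.3%), and in F3 4 rose and 6 fell (4.72%, close to the 3.11% of all). The lowest in the mean of the 3 differences were Celf2 1387879_a_at (−1.26), Ddx17 1397405_at (−1.18), Thoc2 1385493_at (−1.12), Pnn 1380001_at (−1.12), Mbnl1 1382463_at (−1.04) and Cirbp 1382809_at (−0.90). Pnn, a nuclear speckle protein, had 33 and 33.9 in F1 vinclozolin testes, against 133.4 and 152.2 in F1 controls, at 1380001_at, while Pnn 1374111_at gave −0.02 in F1. A further probe set, Pnn 1396463_at, was called lower in F3 (−0.73). Mbnl1, a muscleblind splicing regulator, had 10.9 and 6.8 in F1 vinclozolin testes, against 44.2 and 66.4 in F1 controls, at 1382463_at, while 1372079_at rose in the mean of the 3 differences (0.27). Of these 6 probe sets only Thoc2 1385493_at, of the complex that couples transcription to RNA export, was also called in F3, with 20.8 and 20.5 in F3 vinclozolin testes against 52.4 and 45.8 in F3 controls (adjusted p = 0.0178).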

How the data were processed

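Total RNA of 12 pools of rat testes was read on Affymetrix arrays. The series' value table gives 1 intensity a probe set on a linear scale, from 0 to 9534.9, as deposited; the authors' summarisation software is not given in the sources used here. The 2% trimmed mean was 125.03 to 125.04 on every array, so the arrays had been scaled to a common level before deposit. From the deposited intensities, log2(value + 16) was computed, which understates the changes of dim probe sets. Of 31042 probe sets without the 57 controls, 21729 were tested, after removal of the 9313 in the lowest 30% by mean, whose signal was under 14.8. Symbols came from the platform annotation: 20826 probe sets had 1, 436 several and 9780 none.

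The limma package, version 3.58.1, under R 4.3.3, fitted 6 group means over the 12 arrays (trended eBayes, 6 residual and 8.97 prior degrees of freedom), with Benjamini-Hochberg adjustment over all tested probe sets and a call at an adjusted p under 0.05. Tested were the vinclozolin minus control difference of every generation, the mean of the 3, an F test of dependence on generation and an F test among controls. For pairs of probe sets of 1 gene, the log2 difference on each array was fitted likewise over 6158 pairs (11.6 prior degrees of freedom). The code was tested on simulated data. The number of arrays limits the precision.

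The members and lists were chosen with earlier results of these data known. Named were, per generation, the 6 highest and 10 lowest called probe sets, all probe sets of those genes, the 6 pairs with the smallest p, the 5 with the smallest p in each F test, the 2 largest called per family, all of U2af genes, Scaf11 and Ccar1, and 6 other splicing genes. Further genes named (Srsf4, Srsf5, Srsf6, Srsf9, Srsf10, Snrpe, Snrpf, Prpf19, Prpf4, Prpf3, Prpf18, Prpf8, Prpf6, Hnrnpd, Hnrnpm, Hnrnpll and Srsf1, Srsf7) were chosen after their values were seen. For the F test among controls, the 5 with the smallest p (Hnrnpu 1370171_at, Snrpb 1388117_at, Hnrnph3 1395455_at, Hnrnpdl 1371333_at and Srsf10 1382052_at) each had an adjusted p of 1. Alternatives were 2 other pseudocounts, 2 other filters, quantile normalization, median centring, a replicate block, the beta-actin ratio as a covariate, array weights, no trend, the arrays of 1 generation alone, 1 probe set per gene, and leaving out each array. Replicate numbers did not pair the samples: same-numbered deviations from group means correlated at −0.02, −0.04 and 0.03 in F1, F2 and F3.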

Additional observations from a re-analysis of the deposited data

Results flagged for a closer look

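The vinclozolin minus control difference depended on generation in 8 splicing probe sets, by the F test of limma with Benjamini-Hochberg adjustment over 21729 probe sets. Hnrnpa2b1 1395561_at had log2 differences of −2.10, −1.46 and −0.44 in F1, F2 and F3 (adjusted p = 0.00226). Sf3b1 1382691_at had −2.09, −2.28 and −0.66 (adjusted p = 0.00397). Sf3b5 1371324_at had −0.26, −0.55 and 0.34, with both F3 vinclozolin arrays above and both F2 vinclozolin arrays below their controls (adjusted p = 0.0126). U2af2 1395614_at had −1.73, −0.67 and −0.33 (adjusted p = 0.0155). Srsf2 1371839_at had −0.91, −0.70 and −0.09 (adjusted p = 0.0196). Hnrnpa3 1394741_at had −0.97, −0.65 and 0.08 (adjusted p = 0.0392), Hnrnpf 1370844_at −0.86, −0.77 and −0.27 (adjusted p = 0.0439), and Srsf10 1386071_at −0.59, −0.32 and 0.48 (adjusted p = 0.0492). With the beta-actin ratio as a covariate 0 of the 105 splicing probe sets were called for dependence on generation. The fitted differences of Sf3b1 1382691_at were then −1.96, −2.20 and −0.63, close to those without it, and those of Hnrnpa2b1 1395561_at were −0.45, −0.38 and −0.14. In F1 the values of Srsf2 1371839_at, Hnrnpa3 1394741_at and Srsf10 1386071_at turned sign, to 0.16, 0.67 and 0.31. Hnrnpf 1370844_at had −0.19 there, U2af2 1395614_at −1.545 and Sf3b5 1371324_at −0.73. The part of RNA integrity in the 8 results cannot be told apart.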

How the results depend on the processing

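Of 103 named values under 2333 alternatives in all, 2092 kept direction and call, 204 lost the call, 12 gained it and 25 turned sign. Counts of called splicing probe sets moved over 1.5 times as follows. The beta-actin covariate gave 0 in F1, 0 in F2, 0 for the mean and 0 for dependence on generation, 3 pairs in F1, 7 in F2 and 1 other splicing probe set. Without a trend the counts were 33 in F1, 4 in F3, 2 for generation and 61 other splicing probe sets. The 4 arrays of a generation alone gave 23 in F1, 33 in F3 and 15 pairs in F3, and array weights 37 and 16 in F3. No filter on low values gave 5 in F3 and 5 for generation, median centring 5 for generation, and a pseudocount of 64 gave 11 pairs in F3. The brightest probe set per gene gave 27, 16 and 4 in F1, F2 and F3, 30 for the mean and 2 for generation (of 62). Without Scaf11, Ccar1 and Sf3b1, F3 had 6 of 95, 3 higher and 3 lower. The cause of these moves was not tested, beyond the fewer probe sets or arrays in some.

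Leaving out 1 array gave 23 to 63 calls in F1, 15 to 51 in F2, 2 to 31 in F3, 49 to 77 for the mean, 2 to 40 for generation, 0 to 0 among controls, 33 to 45, 25 to 43 and 3 to 15 pairs in F1, F2 and F3, and 53 to 151 other splicing probe sets. The low ends came without F1 control replicate 2 (F1), F2 control replicate 2 (F2) and F3 control replicate 1 (F3), and the high ends without F1 vinclozolin replicate 1, except F1 pairs (without F2 vinclozolin replicate 1) and the controls. The replicate block gave 49, 32 and 11 calls in F1, F2 and F3, 60 for the mean, 9 for generation and 43, 40 and 10 pairs, and 2 of the 103 named calls were lost, Sf3b1 1382691_at (adjusted p = 0.0506) and Prpf38b 1379691_at (adjusted p = 0.0523), both in F3.

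Sign turned with the beta-actin covariate in F1 for Snrpd1 1379320_at (−0.18), Srsf11 1382056_at (−2.16), Prpf38a (−0.28), Prpf38b 1385455_at (0.23), Hnrnpul1 (0.33), Hnrnpa3 1394741_at (0.67), U2af1l4 1373205_at (−0.55), Ccar1 1376864_at (−0.38), U2af2 1388797_at (0.15) and U2af2 1395282_at (0.20), in F2 for U2af1l4 (−0.20), in F3 for U2af2 1395282_at (0.056), and in the mean for Srsf2 1371839_at (0.087), Srsf3 (−0.11), Snrpd2 (−0.024) and Ddx17 1397405_at (0.55). Ccar1 1376864_at in F3 turned to 0.034 with quantile normalization and 0.040 with median centring, and lay between −0.033 and 0.0039 without 1 array. Without 1 array, U2af1l4 gave −0.078 to 0.24 in F1, U2af2 1395282_at −0.16 to 0.29 in F2 and −0.37 to 0.19 in F3, and in F3 Scaf11 1376049_at lay between −0.13 and 0.15 and Scaf11 1374154_at lay between −0.32 and 0.0049. No value that turned sign passed the threshold. These lists hold only the 103 named values. With the beta-actin covariate other F1 falls given above also turned sign, among them Srsf2 1371839_at (0.16), Hnrnpd (0.91), Hnrnpu 1370170_at (0.33), Srsf4 (0.94), Srsf9 (0.67), Srsf6 1372075_at (0.35) and 1383466_at (0.67), and Hnrnpll (0.36). So did the F1 rises of Snrpe (−0.34) and Prpf4 (−0.19). The F1 falls of Hnrnpf (−0.19), Hnrnpm (−0.13) and Srsf5 (−0.15) shrank and kept their sign.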
